A study of Homo sapiens with 4 samples.

Results

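The Grainyhead-like genes GRHL1, GRHL2 and GRHL3 were followed through a map of H3K27ac, an acetylated form of histone H3 found at active promoters and enhancers, in A375 cells, an established line from a human melanoma. All lines of the authors' deposited table that name 1 of the 3 genes were taken, which gave 41 regions out of 91107 distinct regions in all: 6 for GRHL1, 19 for GRHL2 and 16 for GRHL3. The labels describe 4 chromatin immunoprecipitation libraries, 2 of cells treated with isopropanol, the vehicle, and 2 of cells treated with 1 mM octanoate, which is a fatty acid of medium chain length, for 48 hours in both cases. No genetic change or other agent is named for either group, and the labels do not say whether the libraries of a group came from separate cultures.

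The authors' deposited table gives 1 comparison, and for each region it lists the mean level, the log2 fold change with its standard error (SE), and p-values before and after adjustment. A value for each library was not analysed here, so depth and the spread between replicates are unknown, and every error is the SE of the authors' model. The header does not say which group is the numerator, so a sign is given for each fold change without saying which treatment had more acetylation. The genes were selected on the fold changes and p-values of this comparison, so their values are a description and carry no test of their own. Gene names beside regions are the authors' assignments, which do not show that a region acts on that gene.

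Grainyhead-like proteins are transcription factors named after the fly gene grainyhead. They bind DNA as dimers and are known for building and repairing surface epithelia: GRHL3 for the skin barrier, wound closure and neural tube closure, GRHL2 for holding cells in an epithelial state, where it and ZEB1 repress each other, and GRHL1 for desmosomes of the skin. Melanoma arises from melanocytes, which come from the neural crest and not from the surface epithelium.

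Promoter sequences show where the acetylated regions sit relative to the gene starts, because GRHL3 has more than 1 start. Windows from 250 bases before to 50 bases after each start were taken from RefSeq (GRCh38.p14, the build named hg38 in the submitters' processing notes), in which 2 of the 3 genes, GRHL1 and GRHL3, were matched. The windows are shown 5′ to 3′ on the strand of the gene, with capitals for matches on either strand to CACCTG, an E-box that ZEB proteins bind, or GGGCGG, the GC box.
GRHL3 upstream start (chr1:24319107-24319406, plus strand): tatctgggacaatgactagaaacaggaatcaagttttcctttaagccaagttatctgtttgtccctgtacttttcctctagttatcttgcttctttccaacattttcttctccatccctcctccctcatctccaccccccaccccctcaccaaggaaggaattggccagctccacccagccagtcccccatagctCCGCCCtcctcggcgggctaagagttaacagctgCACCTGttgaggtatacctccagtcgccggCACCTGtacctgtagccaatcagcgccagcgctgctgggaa
GRHL3 downstream start (chr1:24322790-24323089, plus strand): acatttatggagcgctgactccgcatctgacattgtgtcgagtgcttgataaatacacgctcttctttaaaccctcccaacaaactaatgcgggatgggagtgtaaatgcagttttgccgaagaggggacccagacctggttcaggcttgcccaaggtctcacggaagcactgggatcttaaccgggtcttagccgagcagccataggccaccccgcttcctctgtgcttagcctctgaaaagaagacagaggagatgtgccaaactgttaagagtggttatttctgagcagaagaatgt
GRHL3-AS1 start (chr1:24321942-24322241, minus strand): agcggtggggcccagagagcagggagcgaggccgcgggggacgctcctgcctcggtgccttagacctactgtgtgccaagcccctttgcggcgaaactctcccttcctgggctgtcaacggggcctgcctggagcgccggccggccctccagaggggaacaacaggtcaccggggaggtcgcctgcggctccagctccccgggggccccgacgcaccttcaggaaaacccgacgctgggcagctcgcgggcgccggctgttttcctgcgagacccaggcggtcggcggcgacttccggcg
GRHL1 start (chr2:9951443-9951742, plus strand): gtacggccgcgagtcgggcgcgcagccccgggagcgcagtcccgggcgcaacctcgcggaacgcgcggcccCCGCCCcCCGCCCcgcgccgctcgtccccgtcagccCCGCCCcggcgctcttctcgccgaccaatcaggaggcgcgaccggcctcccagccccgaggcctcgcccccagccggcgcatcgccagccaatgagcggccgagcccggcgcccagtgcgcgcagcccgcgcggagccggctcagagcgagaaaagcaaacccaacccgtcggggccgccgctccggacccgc

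A search for 4 motifs covered both strands, and each match is a description of letters only. The upstream GRHL3 window held 2 matches to CACCTG, which begin 21 bases before the start and 9 bases after it, and 1 match to GGGCGG. The GRHL1 window held 3 matches to GGGCGG, and the windows of the downstream GRHL3 start and of GRHL3-AS1 held none of the 4 motifs. Neither AACNGGTT, a form of the grainyhead site, nor TGANTCA, the AP-1 site, was in any of the 4 windows. Of 34943 promoter windows of the same length, 20.6% held CACCTG, 44.9% GGGCGG, 1.73% AACNGGTT and 7.72% TGANTCA. The GRHL1 and GRHL3-AS1 windows were rich in G and C, with 79.7% and 72.0%, beside 53.0% in that of the upstream GRHL3 start and a median of 58.7% over all windows.

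GRHL3 carried the called regions of the family. In the authors' deposited table, 7 of its 16 regions had a computed adjusted p-value, and 4 of these passed the threshold of 0.05, all positive; over all 36436 regions with a computed value 1.67% passed, and 1.65% passed with a positive fold change. The comparison chose the genes, so nothing is read from that contrast. GRHL1 and GRHL2 had 0 calls among 2 and 10 regions with a computed value (authors' DESeq2 columns), and at an unadjusted p-value under 0.05 the counts among those regions were 0 for GRHL1, 1 for GRHL2 and 7 for GRHL3, beside 18.4% of all such regions. Most regions of the table shared a positive shift, with a median log2 fold change of 0.32 over those with a computed value. After this median was subtracted and the p-values were adjusted again, none of the 4 GRHL3 calls passed (adjusted p-values from 0.179 to 0.808). Of all regions with a computed value, 0.124% did. With the median of all regions subtracted in its place 0 passed, beside 0.11% of regions with a computed value. Of the 4, 2 passed a threshold of 0.01, beside 0.351% of regions with a computed value. A log2 fold change of 1 or more was found for 2 of the 4, where 0.876% of regions with a computed value were calls of at least that size.

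The largest fold change of the family lay over the downstream start of GRHL3. This region (chr1:24321396-24323093) had a log2 fold change of 1.36 ± 0.31 (SE) in the authors' deposited table, a ratio of 2.56, and its adjusted p-value was 0.00471. Only 0.159% of all regions with a computed value had a larger fold change. Subtraction of the median left 1.04 (an adjusted p of 0.179). Its mean level was 42.2 in the authors' normalized units, or 24.9 per kb, the highest level per kb among the GRHL3 regions. The 300 bases shown for the downstream GRHL3 start lie wholly inside it, and so do those of GRHL3-AS1, a long non-coding RNA read from the other strand, whose start is at position 24321991. Acetylation at these starts cannot be told apart in 1 region.

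The upstream start of GRHL3, at position 24319357 in RefSeq, lay in a gap between 2 small regions. The region before it (chr1:24318321-24318891) had a mean level of 7.59 and a log2 fold change of 0.92 ± 0.63 (SE) in the authors' deposited table, and the region after it (chr1:24319463-24319943) had 9.42 and 0.78 ± 0.58. Neither had a computed adjusted p-value, and their unadjusted p-values were 0.144 and 0.175. Both values exceed their SE by less than a factor of 2.

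The other 3 calls lay in a cluster of 4 wide regions upstream of GRHL3, grouped after their positions were seen. The cluster ran from 24262921 to 24299871 on chromosome 1, a span of 36.95 kb of which 78.1% was covered by regions, and it held 74.9% of the summed mean level of all GRHL3 regions in 28.8 of their 40.6 kb. Its region farthest from the gene (chr1:24262921-24269306), 50.02 kb from the assigned start, had a log2 fold change of 1.08 ± 0.23 (SE) in the authors' deposited table, at a mean level of 95.02, and its adjusted p-value was 0.00224. The next toward the gene (chr1:24274410-24280371) had 0.81 ± 0.23 at a mean level of 104, with an adjusted p-value of 0.0403, just inside the threshold. Adjusted over all distinct regions, where 0.274% of regions passed, its p-value was 0.0989 and the other 3 GRHL3 calls still passed.

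Nearer the gene, the fold changes of the cluster differed in size. The third region (chr1:24282342-24287256), 32.1 kb away, had a log2 fold change of 0.94 ± 0.24 (SE) at a mean level of 97.1 in the authors' deposited table (an adjusted p of 0.0137). The fourth (chr1:24288287-24299871) was the widest of the 41, at 11.6 kb, and had the highest mean level over its whole width, 276.9. Per kb its level was 23.9, below the 24.9 of the GRHL3 region over the downstream start and the 24.8 of a GRHL2 region (chr8:101657321-101657921). It had the smallest fold change of the 7 GRHL3 regions with a computed value, 0.46 ± 0.21 in the authors' deposited table (an adjusted p of 0.233). That value is 0.14 above the median of all regions with a computed value. The difference between the regions was not tested, because they come from the same libraries and no value per library was analysed.

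Of the other GRHL3 regions with a computed value, 1 lay just outside the threshold. It runs across the downstream end of GRHL3 (chr1:24362706-24366328) and was also assigned to STPG1, the neighbouring gene, the only one of the 41 regions listed with another gene. Its log2 fold change was 0.91 ± 0.28 (SE) in the authors' deposited table, at a mean level of 54.8, and its adjusted p-value was 0.0560. The region 9.65 kb upstream of the start (chr1:24307336-24309668), inside the span of GRHL3-AS1, had 0.72 ± 0.33 at a mean level of 35.4 (an adjusted p of 0.231).

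**Figure D1:**
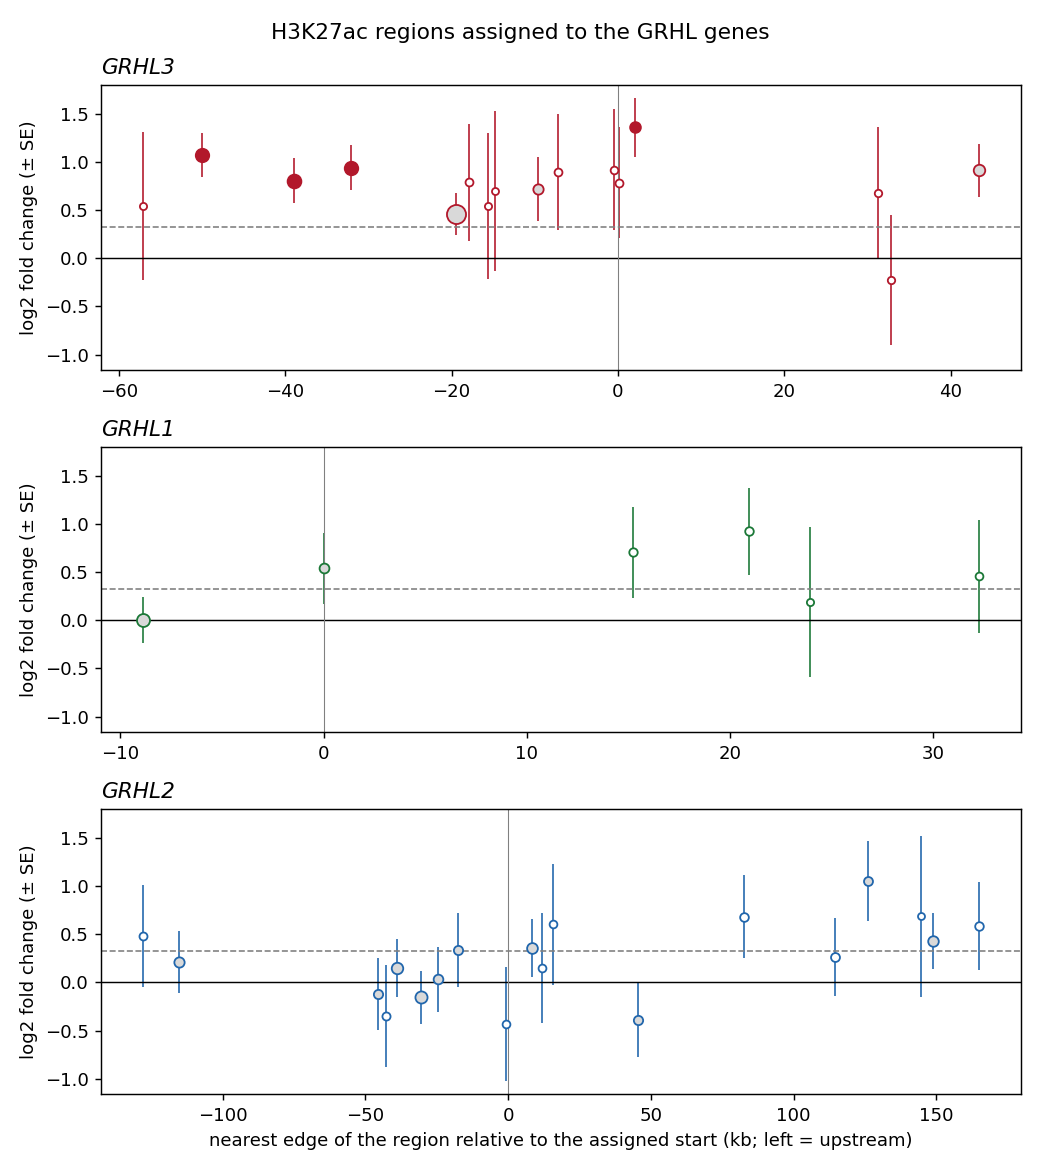
Log2 fold change (vertical axis, error bars ± SE of the authors' model) of each region assigned to GRHL3, GRHL1 or GRHL2 against the distance in kb from the region's nearest edge to the assigned start, with upstream to the left. Filled points passed an adjusted p-value of 0.05, grey points did not, open points had no computed value, point size grows with mean level, and the dashed line is the median of 0.32; 15 of 16 GRHL3 points lie above that line, and the 4 filled points are all in the GRHL3 panel.

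The 9 remaining GRHL3 regions were weak, with mean levels from 3.85 to 9.42, and the authors' deposited table gives them no computed adjusted p-value, as it gives none up to a mean level of 18.44. Their log2 fold changes ran from -0.22 to 0.92 with a median of 0.70, and their SEs from 0.58 to 0.83. The negative one (chr1:24352215-24352458), inside the gene at a mean level of 5.71, had -0.22 ± 0.68 in the authors' deposited table. It was the only negative value among the 16. Over all distinct regions 73.7% were positive, and the shares were not compared, because this comparison chose the genes. By place, 11 GRHL3 regions lay upstream of the gene, all positive, with a median of 0.79, and 4 lay within it, with a median of 0.73.

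GRHL1, the desmosome regulator of the family, had fold changes nearer to the rest of the table. Its start lay within 1 region (chr2:9950784-9952496), the only one of the 41 with a deposited distance of 0, and the GRHL1 promoter shown is wholly inside it. That region had a log2 fold change of 0.54 ± 0.37 (SE) at a mean level of 28.8, or 16.8 per kb, in the authors' deposited table (an adjusted p of 0.385). The strongest GRHL1 region by level (chr2:9939149-9942818), 8.88 kb upstream, had a mean level of 84.7 and a log2 fold change of 0.00 ± 0.24 (an adjusted p of 0.995). The 95% interval from its SE ran from -0.47 to 0.47. This region and the one over the GRHL1 start each overlap an end of LOC105373422, a long non-coding RNA gene.

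The 4 regions within the GRHL1 gene had mean levels from 4.78 to 14.7 and, in the authors' deposited table, no computed adjusted p-value. Their log2 fold changes ran from 0.19 to 0.92. The largest (chr2:9972639-9973524) had 0.92 ± 0.45 (SE) at a mean level of 14.7, and its unadjusted p-value was 0.0397, beside 8.99% of all distinct regions with an unadjusted p-value under 0.05.

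GRHL2, which holds epithelial cells in their state, had the most regions and the lowest median fold change. Of its 19 regions in the authors' deposited table, 14 had log2 fold changes that were positive and 5 negative, with a range of -0.43 to 1.05 and a median of 0.26. No region overlapped the assigned start. The nearest, 0.782 kb upstream (chr8:101491039-101491650), had a mean level of 8.37 and a log2 fold change of -0.43 ± 0.59 (SE), and its unadjusted p-value was 0.465. It lies inside the span of GRHL2-DT, a long non-coding RNA gene.

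Among GRHL2 regions with a computed adjusted p-value, the 2 with the highest levels lay upstream and had fold changes near 0. The region 30.6 kb upstream (chr8:101458508-101461825) had a mean level of 66.5 and a log2 fold change of -0.15 ± 0.28 (SE) in the authors' deposited table. The region 39.0 kb upstream (chr8:101450605-101453463) had 54.7 and 0.15 ± 0.30. The former overlaps an end of GRHL2-DT. The other 4 upstream regions with a computed value, from 17.6 to 115 kb away, had log2 fold changes of 0.33, 0.03, -0.12 and 0.21 in order of distance, with SEs from 0.32 to 0.38, each value smaller in size than its own SE.

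Within the GRHL2 gene the values were mostly positive. The smallest p-value of GRHL2 belonged to a region 126 kb inside it (chr8:101618635-101620361), with a log2 fold change of 1.05 ± 0.42 (SE) in the authors' deposited table and p-values of 0.0115 before and 0.163 after adjustment. Its mean level was 18.6, only just above the levels without a computed value, and its SE is larger than that of any GRHL3 region with a computed value. The regions 149 kb and 8.49 kb inside the gene had 0.43 ± 0.29 and 0.36 ± 0.30, and that 45.4 kb inside had -0.39 ± 0.38. Over the 10 regions within the gene the median was 0.51, and over the 9 upstream of it 0.03; 9 and 5 of them were positive.

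Set side by side, the 3 genes had median log2 fold changes of 0.79 (GRHL3, 16 regions), 0.50 (GRHL1, 6 regions) and 0.26 (GRHL2, 19 regions) in the authors' deposited table, where the median of all distinct regions was 0.28. Means weighted by the inverse of the squared SE gave the same order, 0.83, 0.35 and 0.21. The values of the paralogs depended on which regions were taken: over regions with a computed adjusted p-value the GRHL1 median was 0.27, from 2 regions, and within 50 kb of the start the GRHL2 median was 0.03. Over the 19 regions with a computed value, the GRHL3 values ran from 0.46 to 1.36, the GRHL1 values from 0.00 to 0.54 and the GRHL2 values from -0.39 to 1.05, so the genes overlapped. The GRHL3 regions with a computed value had smaller errors, with a median SE of 0.24 beside 0.33 for GRHL2, and higher mean levels, from 35.4 to 276.9 beside 18.6 to 66.5. Level per kb was 18.8 over all GRHL3 regions, 20.0 for GRHL1 and 16.2 for GRHL2, beside 20.3 over all distinct regions. Of all regions with mean levels in the range of the 4 called GRHL3 regions, 2.10% passed.

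**Figure D2:**
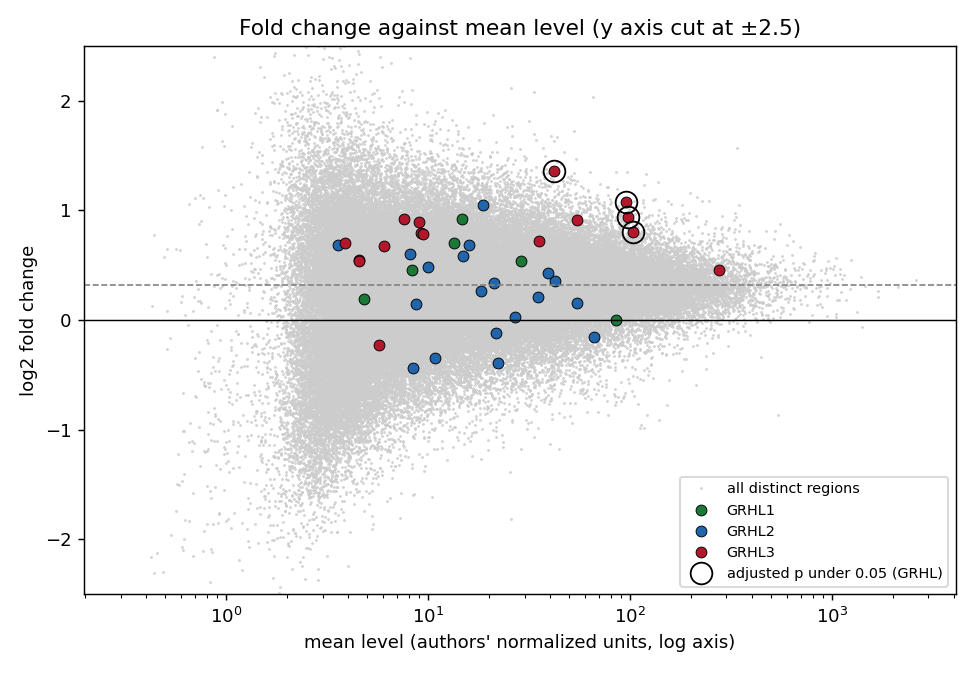
Log2 fold change against mean level (log axis, authors' normalized units) for all distinct regions in grey and the GRHL regions in colour, with rings around the 4 GRHL regions with an adjusted p-value under 0.05 and a dashed line at the median of 0.32. The ringed GRHL3 points have mean levels from 42.2 to 104. Of all regions with a computed value, 0.159% to 5.60% had a larger fold change than these points. For the GRHL2 region with the largest fold change, 1.05, that share was 1.43%.

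Few genes had as many called regions. Of 17301 genes named in the authors' deposited table, 536 had at least 1 call and 4 had 4 or more: CDCP1 and HMGA2 with 5, and GRHL3 and NEK2 with 4. These counts depend on how many regions a gene was assigned. The GRHL genes were selected on the values of this comparison, so the counts and the ranks that follow are a description only. Among the 2675 genes with at least 10 regions, 27 had a higher median log2 fold change than GRHL3 and 1232 a higher one than GRHL2, and the median of the gene medians was 0.25.

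The high values were not limited to regions assigned to GRHL3. Within 100 kb of the region nearest the upstream GRHL3 start, 25 distinct regions were found, of which 24 had a positive fold change and 6 were calls in the authors' deposited table, beside 73.7% of all distinct regions with a positive fold change and 1.67% of regions with a computed value called. Of the 6 calls, 4 are the GRHL3 regions already described, whose values chose the genes. The 2 calls assigned elsewhere lay on either side of the gene. The one assigned to IFNLR1, a subunit of the interferon lambda receptor (chr1:24235479-24238740), had a log2 fold change of 0.93 ± 0.25 (SE) at a mean level of 76.8 (an adjusted p of 0.0288). The one assigned to STPG1 (chr1:24383580-24386098), inside that gene, had 1.28 ± 0.27 at a mean level of 51.4 (an adjusted p of 0.00208). None of these 6 passed after subtraction of the median.

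From the first to the last of these calls, 150.6 kb held 20 regions, 19 of them positive, in the authors' deposited table. Beyond the STPG1 call the values were lower. The next regions toward NIPAL3 had log2 fold changes of 0.51 ± 0.24 (SE), 0.52 ± 0.38 and 0.38 ± 0.27, and that beside the NIPAL3 start, at a mean level of 196.9, had 0.21 ± 0.23 in the authors' deposited table. Neighbouring regions share their libraries and are not replicates of each other.

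**Figure D3:**
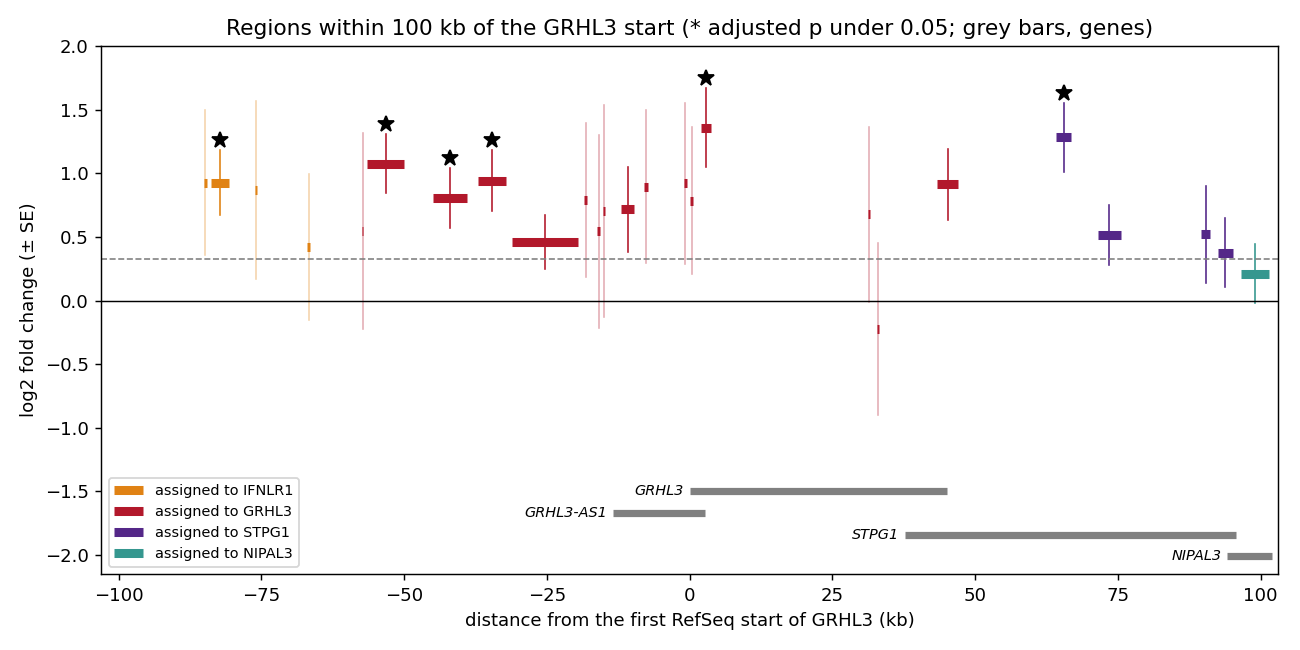
Log2 fold change (vertical axis, thin lines ± SE) of the regions within 100 kb of the GRHL3 start against distance in kb from the upstream RefSeq start, with each region drawn to its width and coloured by the assigned gene, paler error lines for regions with no computed adjusted p-value, and grey bars for gene spans. Stars mark the 6 calls at an adjusted p-value under 0.05, and the values drop toward NIPAL3 at the right, where the last region has 0.21.

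The same window was taken around the paralogs. Around the GRHL1 start, 16 regions lay within 100 kb, 12 positive and 4 negative, with a median of 0.41 and 0 calls in the authors' deposited table. The 10 assigned to other genes there, TAF1B and KLF11, ran from -1.37 to 0.63. Around the GRHL2 start, 12 regions lay within 100 kb, all assigned to GRHL2, with 7 positive, a median of 0.09 and 0 calls. The counts with an unadjusted p-value under 0.05 were 1 around GRHL1, 0 around GRHL2 and 10 around GRHL3, beside 8.99% of all distinct regions. Of the 10, 7 are regions of GRHL3 itself, so the counts repeat what chose the genes and were not compared.

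Genes that act with, against or downstream of grainyhead factors were taken from 5 lists of 43 genes, of which OVOL1, PRSS8 and IVL matched no line. Together the lists held 360 distinct regions, 141 with a computed adjusted p-value. Of these 141, 3 were calls, all positive, beside 1.67% of all regions with a computed value. Their median log2 fold change was 0.33 in the authors' deposited table, beside 0.28 over all distinct regions.

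The closest relatives outside the family are TFCP2, TFCP2L1 and UBP1, of the CP2 branch. Their 8 regions, 4 of them with a computed value, had 0 calls, beside 1.67% of all regions with a computed value. Of the 8, 0 had an unadjusted p-value under 0.05, beside 8.99% of all distinct regions. The smallest p-value was that of the region at the TFCP2 start (chr12:51169778-51174315), with a log2 fold change of 0.34 ± 0.23 (SE) in the authors' deposited table.

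Regulators of epithelial identity held 2 calls among 55 regions with a computed value, beside 1.67% of all such regions. Of the 55, 18 had an unadjusted p-value under 0.05 by the authors' DESeq2 columns, beside 18.4% of all such regions. Both calls were assigned to KLF4, a zinc finger factor of the skin barrier. The region 56.7 kb from KLF4 (chr9:107546359-107550723) had a log2 fold change of 0.90 ± 0.23 (SE) in the authors' deposited table, where its adjusted p-value was 0.0190. The other lay 511 kb away (chr9:108000366-108003053), with 1.16 ± 0.32 and 0.0300, and it did not pass when adjusted over all distinct regions (0.0739). Neither passed after subtraction of the median (adjusted p-values of 0.595 and 0.508). Over the 51 KLF4 regions the median was 0.61, and over the 20 regions of EHF, an ETS factor of epithelia, -0.09. OVOL2, a repressor of ZEB1, had a region at its start with 1.24 ± 0.39 and an adjusted p-value of 0.0659. The list as a whole, 145 regions, had a median of 0.32.

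Repressors of the epithelial state held 1 call among 34 regions with a computed value, beside the same 1.67% of all such regions. Of the 34, 2 had an unadjusted p-value under 0.05 by the authors' DESeq2 columns, beside 18.4% of all such regions. The called region was assigned to ZEB2 (chr2:144413330-144416278) and lay 104 kb from the ZEB2 start. It had a log2 fold change of 1.46 ± 0.35 (SE) at a mean level of 26.97 in the authors' deposited table, where its adjusted p-value was 0.00801, and an adjusted p-value of 0.208 after subtraction of the median. At the start of ZEB1 the value was 0.48 ± 0.26 with an adjusted p-value of 0.290, and the list of 82 regions had a median of 0.28.

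Genes known as grainyhead targets had 0 calls by the authors' DESeq2 columns, where 1.67% of all regions with a computed value were calls. Junction and protease genes had 30 regions with a computed value, 7 of them with an unadjusted p-value under 0.05, beside 18.4% of all such regions, and a median of 0.35 over 88 regions in the authors' deposited table. Their smallest p-value was that of a region assigned to EPCAM, an epithelial adhesion molecule, at a deposited distance of 33933 bases. It had 0.87 ± 0.29 (SE) and an adjusted p-value of 0.0853. DSC2, a desmosomal cadherin, had 0.97 ± 0.33 at its start (an adjusted p of 0.100). CDH1, the epithelial cadherin, had -0.63 ± 0.36 at the region with its smallest p-value (an adjusted p of 0.320). That region lay at a deposited distance of -49057 bases, and the median over the 15 CDH1 regions was 0.24. Barrier and planar polarity genes, named as targets of GRHL3, had 18 regions with a computed value, 2 of them with an unadjusted p-value under 0.05, against the same 18.4%, and a median of 0.45 over 37 regions. The smallest p-value among them was that of a region assigned to TGM5, a transglutaminase of the skin, at a deposited distance of 16374 bases. It had 0.84 ± 0.28 and an adjusted p-value of 0.0944.

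**Figure D4:**
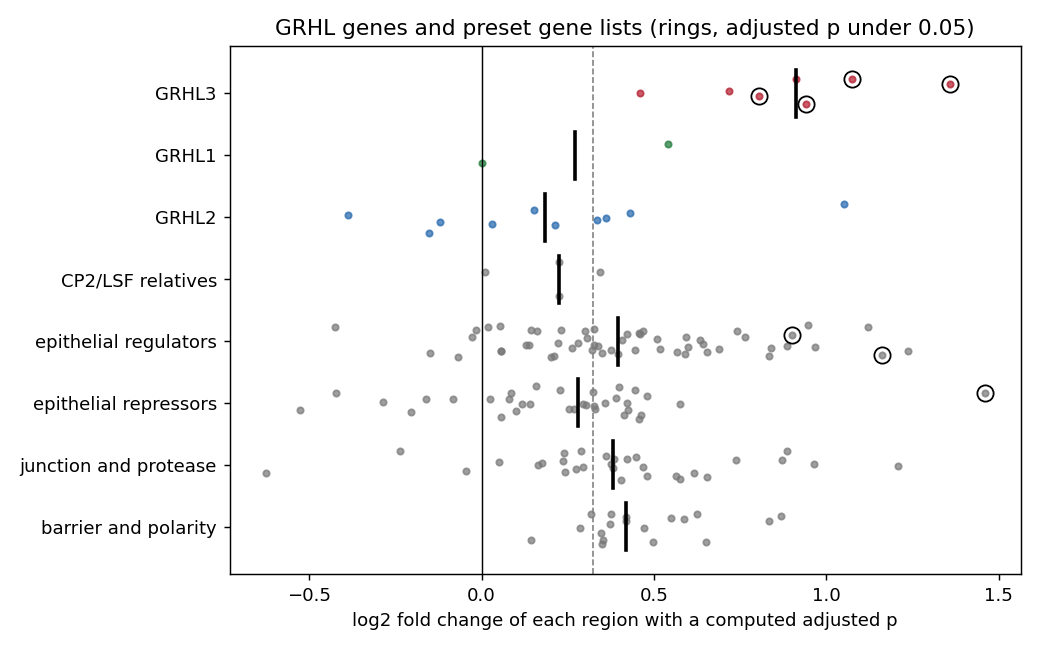
Log2 fold change of each region with a computed adjusted p-value, in rows for GRHL3, GRHL1, GRHL2 and the 5 gene lists, with vertical offsets within a row only to separate points. Black bars are medians, and rings mark adjusted p-values under 0.05. The dashed line is the median of 0.32 over all regions with a computed value. The GRHL3 median of 0.91 lies to the right of all the lists, whose medians run from 0.22 to 0.42.

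The label of the cells was set against markers in the same table. SOX10 and PMEL, genes of the melanocyte lineage, had regions over their starts with mean levels of 773.5 and 269.3 in the authors' deposited table. MITF and S100B, of the same lineage, had 98.4 and 55.2 at theirs. Of the genes of dedifferentiated melanoma, AXL had 515.6 at its start, NGFR 97.6, EGFR 50.5 and SOX9 39.4. TYR, DCT and MLANA had no region over a start. Of the epithelial markers, KRT8 and KRT18 shared a region over their starts at 261.3 and EPCAM had 50.48, whereas KRT5, KRT14, TP63 and CDH1 had none over a start. PTPRC of immune cells and PECAM1 of endothelium had none over a start either. Over a start here means a deposited distance of 0, and some of these genes had regions close by. A KRT5 region at a deposited distance of -743 bases had a mean level of 55.8. A KRT14 region at -881 bases had 22.8, and the nearest PECAM1 region was 0.181 kb away. The highest mean level of any region was 408.1 for PTPRC, whose nearest region was 17.8 kb away, and 164.5 for PECAM1. For TYR, DCT and MLANA the highest was 32.0, 6.79 and 48.5. The markers had 82 regions with a computed value, and by the authors' DESeq2 columns 0 were calls and 19 had an unadjusted p-value under 0.05, beside 1.67% and 18.4% of all regions with a computed value.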

How the data were processed

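H3K27ac immunoprecipitates of A375 cells were sequenced, with 2 vehicle and 2 octanoate libraries grouped by the treatment in the labels. The submitters' processing notes name Trim Galore, cutadapt, FastQC, Bowtie2, Picard, MACS2, featureCounts, DESeq2, bedtools 2.29.1 and hg38, with no role or order. The authors normalized the signal that the table gives as mean level, per the column name, with a scaling not given in the sources used here. Log2 fold changes and their SEs come from the authors' fit, per the file headers. The score in the deposited table equals the fold change divided by its SE. Deposited p-values and adjusted p-values were used as given, and an adjusted p-value of 1 was read as not computed.

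Lines repeating a region for another gene were merged with Python 3.11.15, pandas 2.3.3 and scipy 1.17.1. Calls had a deposited adjusted p-value under 0.05. In centring, a median was subtracted, the normal p-value was retaken from the authors' SE, and Benjamini-Hochberg adjustment was repeated. These steps were tested on simulated data. The simulation gave every region the same added shift, as centring assumes, so it checked the code and not whether centring suits these data. The alternatives tried were a threshold of 0.01, a minimum fold change, other sets for adjustment, centring, and filters on level and distance.

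Named regions were those of the 3 genes and, for each list, its calls or its smallest p-value, with some others chosen after their values were seen: EHF, OVOL2, ZEB1, DSC2, CDH1 and the other genes with 4 or more calls. The genes and lists were chosen with earlier results of these data known. Exon and intron annotation was not analysed here.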

Additional observations from a re-analysis of the deposited data

How the results depend on the processing

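The 4 calls at GRHL genes in the authors' deposited table became 2 at a threshold of 0.01, 2 when a log2 fold change of size 1 or more was also required, and 0 after centring on either median, that of the regions with a computed value or that of all regions. They were 3 when adjusted over all distinct regions and 4 when all lines were counted. Around GRHL3, under alternatives chosen after seeing the data, the 6 calls became 3 at a threshold of 0.01, 3 with size 1 or more, 4 when adjusted over all distinct regions and 0 after either centring. The 2 KLF4 calls became 0 at a threshold of 0.01, 1 when size 1 or more was required, 1 when adjusted over all distinct regions and 0 after either centring, and the 1 ZEB2 call became 0 after either centring. A stricter limit can only keep or lower a count, and centring takes away a shift common to most regions. How far a count falls is not fixed by this. Of 36436 regions with a computed value, 45 passed after centring on their own median and 40 after centring on that of all regions, with 0 of the GRHL3 calls among them. After centring, the 4 GRHL3 calls kept their sign, with log2 values of 0.75, 0.48, 0.62 and 1.04 from upstream to downstream, and the region at 0.81 did not pass when adjusted over all distinct regions. Subtraction of the median turned the GRHL2 median negative (-0.059) and left 0.18 for GRHL1 and 0.46 for GRHL3. Among regions with a computed adjusted p-value it turned 1 GRHL1 region (-0.32) and 3 GRHL2 regions (-0.11, -0.17 and -0.29) negative, and among those without one, 1 GRHL1 region (-0.13) and 2 GRHL2 regions (-0.18 and -0.059). The GRHL1 median fell from 0.50 to 0.27 over regions with a computed value, and the GRHL2 median from 0.26 to 0.030 within 50 kb of the start; the other filters and the weighted means kept each gene's value within a factor of 1.5.

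No paired analysis was possible because values per library were not among the data analysed here. Fits with a replicate block, with each library left out and with other normalizations or filters on counts were therefore not run.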

Other observations

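In the authors' deposited table, mean levels multiplied by 8 were whole multiples of the sixth decimal for 100% of lines, to within 0.001 of that unit, and multiplied by 4 for 50.1% of lines. How many values the authors averaged is not given in the sources used here, and the labels describe 4 libraries.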
